A study of Mus musculus with 4 samples.

Results

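Chromatin accessibility before differentiation was compared between preadipocytes with normal Jmjd1a (Jmjd1a +/+, WT) and preadipocytes homozygous for the HY allele (Jmjd1a HY/HY, HY), in which a histidine of the catalytic domain is changed to tyrosine. The comparison used every ATAC-seq peak on chromosomes 1 to 19 in the day 0 (D0) list of each genotype. These were 69781 peaks for WT D0 and 76164 for HY D0, that is 145945 of the 239709 peaks in the 4 lists of the study. The remaining 2 libraries came from the same cells on day 8 (D8), after induction to beige adipocytes, and were used only to look up the day 0 sites. All libraries were of im-scWAT cells, a culture grown from the stromal vascular fraction of subcutaneous white fat of 5-week-old mice and immortalised with SV40 large T antigen. At day 8 they had had 2 days of induction medium and 6 days of insulin, T3 and rosiglitazone. Cells at day 0 had not yet received the differentiation cocktail, so genotype was the labelled difference. There was 1 library per genotype and day, from 1 immortalised culture per genotype, so every difference below is between libraries and no test between genotypes was possible. Intervals in parentheses are exact 95% binomial or Poisson intervals and cover counting error only.

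JMJD1A, encoded by Kdm3a (formerly Jmjd1a), removes methyl groups from lysine 9 of histone H3, a mark of silent chromatin, and the HY change is in the domain that does so. In ATAC-seq the Tn5 transposase inserts adapters where DNA is free of nucleosomes, and a pile of overlapping tags marks an open promoter or enhancer. In preadipocytes, distal open sites are commonly bound by AP-1 (Fos and Jun dimers) and TEAD factors, whereas CTCF sites mark boundaries and loop anchors and promoters of housekeeping genes carry GC boxes and ETS motifs.

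Each peak was placed in a class by whether it shared at least 1 bp with a peak of the other day 0 list. The strongest sites found in only 1 list are shown first, as a stretch of 50 bases on each side of the summit (mm9, plus strand, from the reference genome), since they are the clearest cases of a genotype-only site. Capitals mark a match to any of the 9 motifs searched (letters given with the motif results). Of these 6 sequences, only the HY-only site upstream of Clec14a held a match, to AP-1.
WT-only, Il34 intron (chr8:113313127-113313227): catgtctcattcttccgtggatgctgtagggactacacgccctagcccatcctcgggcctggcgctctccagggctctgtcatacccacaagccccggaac
WT-only, Palm2 intron (chr4:57551060-57551160): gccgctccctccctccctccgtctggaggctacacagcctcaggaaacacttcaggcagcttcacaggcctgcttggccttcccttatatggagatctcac
WT-only, Srrm4 promoter (chr5:116896667-116896767): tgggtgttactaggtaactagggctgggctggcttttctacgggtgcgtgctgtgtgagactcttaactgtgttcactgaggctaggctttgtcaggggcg
HY-only, upstream of Clec14a (chr12:59555945-59556045): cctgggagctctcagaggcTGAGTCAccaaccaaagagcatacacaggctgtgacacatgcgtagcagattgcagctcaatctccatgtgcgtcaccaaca
HY-only, C330013J21Rik promoter (chr2:177660453-177660553): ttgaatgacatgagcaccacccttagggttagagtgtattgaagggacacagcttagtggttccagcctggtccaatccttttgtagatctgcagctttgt
HY-only, downstream of Dmrt2 (chr19:25972718-25972818): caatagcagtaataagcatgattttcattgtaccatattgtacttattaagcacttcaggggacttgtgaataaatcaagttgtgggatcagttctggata

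The WT-only site in an intron of Il34, which encodes a ligand of the CSF1 receptor, had a summit pileup of 42 overlapping tags in WT D0 (30.3 to 56.8), no peak in HY D0 and none in either D8 list. The HY-only site 186 kb upstream of Clec14a, which encodes an endothelial lectin, had a pileup of 39 (27.7 to 53.3) in HY D0 and no peak in the other 3 lists, and the nearest WT D0 peak was 28.4 kb away. The promoter of Srrm4, a splicing factor of neurons, had a pileup of 29 in WT D0, none in HY D0, 7 in WT D8 and none in HY D8. The promoter of C330013J21Rik had 33 in HY D0 and 18 in HY D8, with no peak in either WT list. Both promoters thus lay in the lists of 1 genotype on both days.

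Other WT-only sites among the 10 of highest -log10 q (the caller's evidence for a peak) lay in introns of ORF63 (pileup 30), Ap4s1 (23) and Sh3pxd2a (42) and near Klhl6 (22), Pde7a (21) and Rxra (25). Rxra encodes the partner of PPARγ, and its site lay 9.61 kb upstream of its start. The Pde7a site lay 95.2 kb upstream. Of the 10 sites, 3 had a WT D8 peak and 2 an HY D8 peak. The Klhl6 site, 49.4 kb upstream of the gene, was among them with 22 in WT D0, none in HY D0, 13 in WT D8 and 24 in HY D8, so at day 8 it was in both lists and higher in the HY list. Among the 10 strongest HY-only sites were an exon of Mertk (30), a receptor for the uptake of dying cells, an intron of Cpne4 (27) and sites near Ddx1 (27), Dab2 (24), Cav2 (25), Frem1 (27), Olfr1505 (28) and Dmrt2 (36). Near names the nearest coding gene, at 22.9 kb for Cav2, 28.1 kb for Frem1 and 119 kb for Ddx1. The distance was 210 kb for Olfr1505, 226 kb for Dmrt2 and 458 kb for Dab2. Cav2 encodes a caveolin and Dab2 an endocytic adaptor. Of these 10, 2 had an HY D8 peak (C330013J21Rik, and Dab2 at 22) and 0 a WT D8 peak. The nearest peak of the other day 0 list was a median of 21.4 kb away for the 10 HY-only sites and 4.44 kb for the 10 WT-only sites.

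Of the WT D0 peaks, 10363 (14.9%, 14.6 to 15.1) were WT-only, and of the HY D0 peaks, 18650 (24.5%, 24.2 to 24.8) were HY-only. The joined lists gave 85727 separate sites, of which 56714 were in both. Depth differed little: the background rate of the caller, which is proportional to the tags used, came to 0.659 for WT D0 and 0.708 for HY D0 (ratio 1.07), and the median pileup was 15 in each list. HY D0 peaks were slightly wider (median 279 bp against 262 bp) and covered 29.1 Mb against 24.9 Mb. With both lists shortened to the 69781 strongest peaks, the shares were 17.7% WT-only and 20.6% HY-only.

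Genotype-only peaks were weak. Their median pileup was 8 in the WT-only and 9 in the HY-only class, against 17 and 19 in the shared peaks of the same lists, while the lowest pileup of any peak was 5 in each list. Only 274 WT-only peaks (2.64%) and 729 HY-only peaks (3.91%) reached a pileup of 20. Across deciles of -log10 q within each list, the WT-only share fell from 46.2% (45.0 to 47.4) in the weakest decile to 0.0143%, 1 of 6979 peaks, in the strongest. The HY-only share fell from 65.4% (64.3 to 66.4) to 0.0263%, 2 of 7617 peaks. A site missing from a list may lie just under the calling threshold, so genotype-only means not called, not closed. The 1 bp rule itself split few peaks: 82 of 60218 overlapping pairs shared fewer than 10 bp, and 39 WT-only and 36 HY-only peaks had a peak of the other list within 10 bp.

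**Figure D1:**
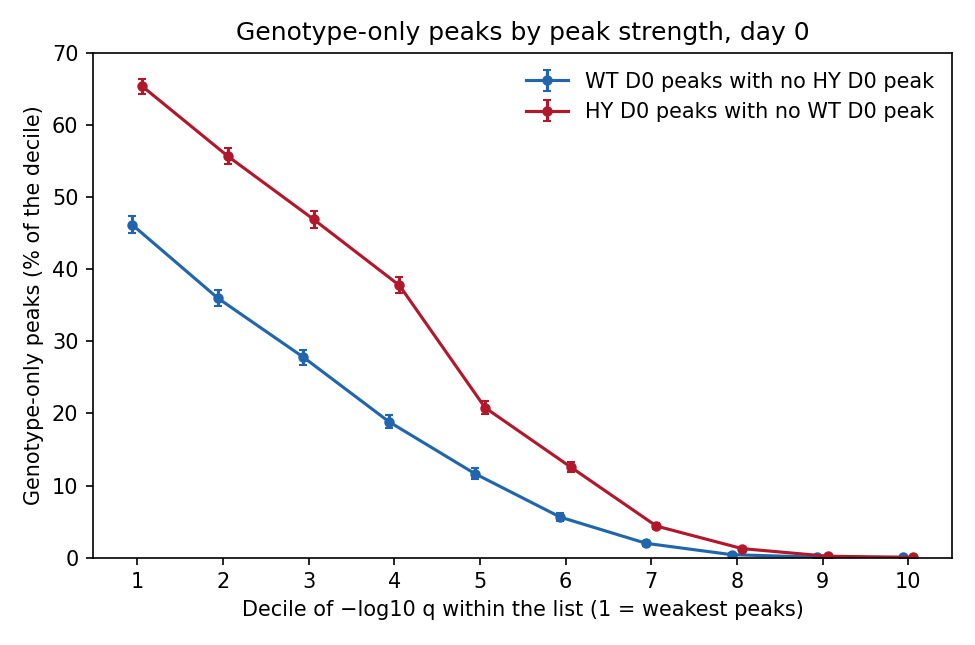
Share of peaks with no peak in the other day 0 list (vertical axis, percent of the decile) by decile of -log10 q within the own list (horizontal axis, 1 weakest), for WT D0 and HY D0. Bars are exact 95% binomial intervals. Both shares fall from the weakest decile (46.2% and 65.4%) to near 0 in the strongest, and the HY-only share is the higher in each decile.

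Genotype-only peaks lay away from promoters. Promoter peaks were those centred at most 1000 bp before or 100 bp after a transcription start site, and all others are called distal. Promoters held 7.42% (6.92 to 7.94) of WT-only and 6.90% (6.54 to 7.27) of HY-only peaks, against 21.3% and 20.6% of shared peaks in the WT and HY lists. With a window of 2000 bp before to 1000 bp after the start site the shares rose to 14.6% of WT-only and 13.9% of HY-only peaks, and shared peaks were not recounted. Introns held 46.0% of WT-only and 44.7% of HY-only peaks, against 37.4% of shared peaks in each list, and intergenic sequence 42.3% and 44.2%, against 36.3% and 36.7%. The gap was present at matched strength and was smallest among weak peaks. Within the weakest quartile of the WT list, promoters made up 7.88% of WT-only and 10.6% of shared peaks, and within that of the HY list 6.82% of HY-only and 8.98% of shared peaks. In the second quartile the shares were 6.75% and 11.5% in WT and 7.35% and 10.2% in HY, and in the third 5.46% and 16.7% in WT and 5.53% and 13.96% in HY.

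The genotype-only classes differed from each other in motif content. The 201 bp around each distal summit were scanned, in both orientations, for TGANTCA for AP-1, GGAATG for TEAD, CAGCTG for an E-box, TGTGGTT for RUNX, TTGCNNAA for C/EBP, CCCNNGGG for EBF, CCGGAAG for ETS, GGGCGG for a GC box and the consensus for CTCF. No motif contains the letters of another, and a match is a description of the sequence, not evidence of binding. AP-1 matches were present at 17.3% (16.6 to 18.1) of the 9594 WT-only distal peaks and at 28.9% (28.2 to 29.6) of the 17364 HY-only distal peaks. Shared distal peaks had 28.4% in the WT list and 28.9% in the HY list, and all 119389 distal day 0 peaks together 27.7%. TEAD matches went the other way, at 21.1% of WT-only and 17.2% of HY-only peaks, against 20.03% of shared peaks in each list. The E-box was found at 13.8% and 19.03% (17.1% and 17.6% of shared), and CTCF at 2.33% and 4.36% (5.17% and 5.26%).

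AP-1 was compared at matched strength. In the weakest quartile of each list, AP-1 was found at 17.0% of WT-only against 25.1% of shared distal peaks in the WT list, and at 25.9% of HY-only against 21.2% of shared distal peaks in the HY list. In the next quartile the values were 18.2% and 26.4% in WT and 31.9% and 24.7% in HY. WT-only peaks were thus below, and HY-only peaks above, the shared peaks of their list in both quartiles, and the AP-1 share was higher in the second quartile in each class. GC content was the same in both genotype-only classes (median 48.3%), below that of shared distal peaks (50.2%). RUNX (8.76% and 7.47%), C/EBP (11.1% and 10.0%) and EBF (8.41% and 7.67%) differed less between the classes, and GC box (6.62% and 6.01%) and ETS (1.32% and 0.979%) were below the shared peaks (10.8% to 10.9% and 1.93% to 2.05%) in both. AP-1 matches were more frequent near the summit than away from it. In the 10 bp just upstream of the summit there were 2.59 matches per 100 HY-only and 1.26 per 100 WT-only peaks, and in the step centred 85 bp upstream 0.881 and 0.698. In WT-only peaks the highest value was 1.31, in the step centred 15 bp downstream.

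**Figure D2:**
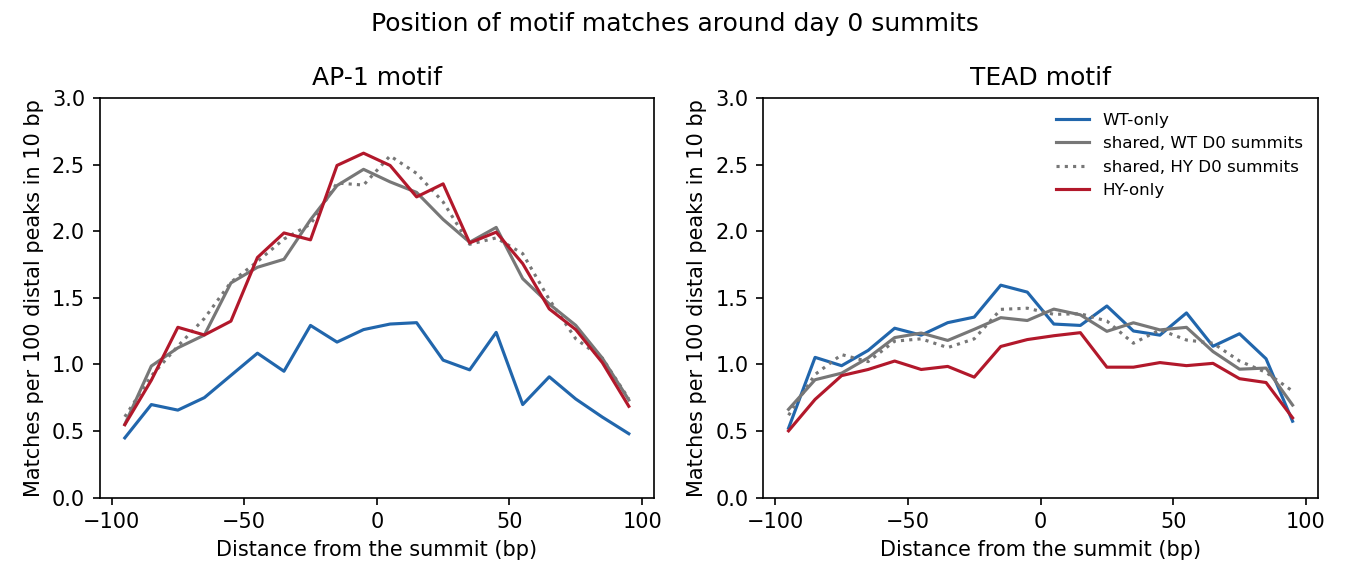
Matches to the AP-1 motif (left) and the TEAD motif (right) per 100 distal peaks (vertical axis) in 10 bp steps of the distance from the summit (horizontal axis, bp), for WT-only, HY-only and shared peaks of each list. For AP-1 the HY-only line runs with the shared lines and the WT-only line below them, and for TEAD the HY-only line is the lowest near the summit.

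The site upstream of Clec14a printed above was the strongest HY-only distal site with an AP-1 match. The next 3 HY-only distal sites with AP-1 and the strongest 3 WT-only distal sites with TEAD, each with the match within 50 bp of the summit and chosen for the match after their values were seen, show them in place (same length, build and strand). Capitals mark the match, TGAGTCA or TGACTCA for AP-1 and GGAATG or its reverse complement for TEAD.
HY-only, AP-1, near Olfr1505 (chr19:14202992-14203092): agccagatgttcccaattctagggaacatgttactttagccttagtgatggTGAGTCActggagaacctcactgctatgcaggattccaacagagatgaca
HY-only, AP-1, near Glra1 (chr11:55561650-55561750): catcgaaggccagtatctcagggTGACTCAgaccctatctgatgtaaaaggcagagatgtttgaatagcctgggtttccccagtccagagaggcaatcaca
HY-only, AP-1, near Sft2d1 (chr17:8498772-8498872): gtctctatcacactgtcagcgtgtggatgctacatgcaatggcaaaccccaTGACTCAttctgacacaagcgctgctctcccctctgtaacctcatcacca
WT-only, TEAD, near Kcnma1 (chr14:24722524-24722624): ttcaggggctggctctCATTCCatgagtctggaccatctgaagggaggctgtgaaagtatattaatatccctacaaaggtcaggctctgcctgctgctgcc
WT-only, TEAD, near Kcne2 (chr16:92200950-92201050): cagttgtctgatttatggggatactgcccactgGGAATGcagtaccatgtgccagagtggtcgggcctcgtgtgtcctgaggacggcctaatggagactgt
WT-only, TEAD, near Oca2 (chr7:63804694-63804794): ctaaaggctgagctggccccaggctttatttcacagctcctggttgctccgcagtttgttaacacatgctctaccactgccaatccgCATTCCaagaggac

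The AP-1 sites near Olfr1505, Glra1 and Sft2d1 had pileups of 28, 23 and 26 in HY D0 and no WT D0 peak. They lay 209603, -140037 and -5089 bp from the start of that gene, with minus for upstream. They ranked 9, 11 and 15 among HY-only peaks, and the Sft2d1 site was in both D8 lists. The TEAD sites near Kcnma1, Kcne2 and Oca2 had 19, 19 and 18 in WT D0 and no HY D0 peak. They ranked 18, 25 and 33 among WT-only peaks and lay -100142, -91679 and 243184 bp from the gene start. The Kcne2 site was in both D8 lists and the Oca2 site in that of WT only.

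At sites in both lists, the signal was compared by rank, because the fold enrichment was not normalised between libraries. Fold enrichment is the summit pileup over the local background, each with 1 added. In 53386 matched pairs, with 1 peak in each list, the percentile of fold enrichment within the WT list and within the HY list had a Spearman correlation of 0.80 across sites, which are not replicates. It was 0.91 at 10706 promoter pairs and 0.75 at 42680 distal pairs. The percentile moved by at most 5 points at 17252 sites (32.3%), and at 54.7% of sites whose mean percentile was over 75 against 16.7% of those between 25 and 50. It was 25 points or more higher in HY at 5628 sites (10.5%) and 25 points or more lower at 3130 sites (5.86%). That imbalance depended on the length of the lists: with the lists cut to the same length the counts were 4132 and 4135, and with percentiles taken among the pairs only 4407 and 4059. With the pileup ranked in place of the fold they were 4043 and 1941, a wider imbalance. On the depth-scaled pileup the median log2 ratio of HY to WT was 0.08, with 1212 sites (2.27%) at least 2-fold higher and 765 (1.43%) at least 2-fold lower in HY.

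**Figure D3:**
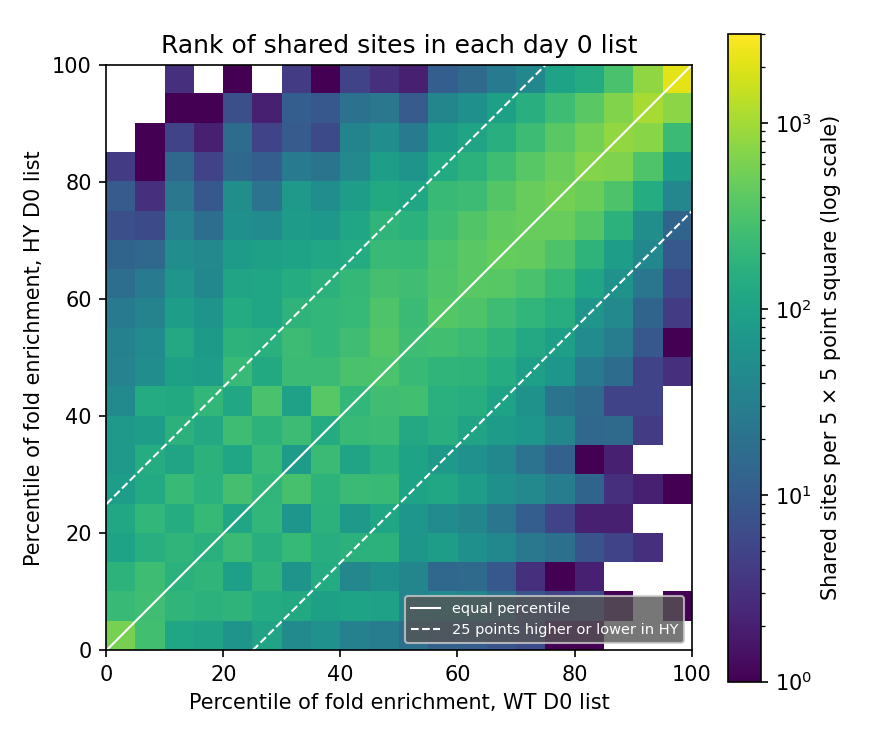
Number of shared sites (colour, log scale) by percentile of fold enrichment in the WT D0 list (horizontal axis) and in the HY D0 list (vertical axis), in squares of 5 by 5 points. The solid line marks equal percentiles and the dashed lines a difference of 25 points, which 5628 sites exceeded upwards and 3130 downwards. Sites of high rank lie close to the diagonal and sites of middle rank spread most.

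Large rank changes at shared sites had the same motif contrast as the genotype-only sites. AP-1 was found at 1757 of the 5168 distal sites that ranked 25 points or more higher in HY (interval 32.7% to 35.3%) and at 21.0% of the 2900 that ranked lower, against 29.2% of all distal pairs. For TEAD the shares were 18.5% and 24.8% (20.4% of all), for the E-box 19.1% and 13.9% (17.2%), for CTCF 6.77% and 3.59% (5.45%) and for RUNX 7.89% and 10.2% (8.15%). These sites are distinct from the genotype-only sites but come from the same 2 libraries.

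Among sites with a pileup of at least 20 in the higher library, the largest rise in rank was in an intron of Sema3d, a secreted guidance cue, with a pileup of 6 in WT D0 (2.20 to 13.1) and 26 in HY D0 (17.0 to 38.1) and a move from the 11.1 to the 97.9 percentile. The site 10.8 kb upstream of Ptgs2, the inducible cyclooxygenase, rose from 6 to 22. The Elf2 promoter, at -849 bp from the start of this ETS factor gene, rose from 6 to 22 and had 6 in WT D8 and 7 in HY D8. A site 57.0 kb from Rgs2, a regulator of G protein signalling, had 6 in WT D0 and 22 in HY D0, yet 26 in WT D8 and 29 in HY D8. These pileups are not scaled for depth, which was lower at day 8. The other sites of the 10 largest rises lay in introns of Mctp2 (6 and 24), Trhde (5 and 21) and Fer1l6 (6 and 25). The rest were nearest to Gm10076 (6 and 26), Ddi1 (6 and 26) and Kcna4 (7 and 27). Their distances from these genes were 2.62 kb for Gm10076, 272 kb for Ddi1 and 741 kb for Kcna4. The Fer1l6 site was centred 168 bp after the gene start, outside the promoter window.

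The largest fall was in an intron of Brip1, a DNA helicase gene, with 24 in WT D0 (15.4 to 35.7) and 6 in HY D0 (2.20 to 13.1), from the 97.6 to the 9.83 percentile. A site 11.4 kb from the start of Fst, which encodes the activin antagonist follistatin, fell from 20 to 6 and had no peak in WT D8 and 7 in HY D8. A site 39.7 kb upstream of Aldh1a3, a retinoic acid synthesis enzyme, fell from 23 to 7 and had no D8 peak. Introns of Kank4 (27 and 6), Rgs3 (24 and 7) and Grin2a (20 and 6) were also among the 10. Sites nearest to Mtx2 (21 and 6), Copb1 (22 and 8), Mfap3l (20 and 7) and Dmrta1 (21 and 7) completed them. Their distances were 356 kb for Mtx2, 53.9 kb for Copb1, 49.2 kb for Mfap3l and 193 kb for Dmrta1. None of the 10 falls was at a promoter, and 1 of the 10 rises was. Among all shared sites with a change of 25 points or more, promoters were 7.35% of falls and 8.17% of rises.

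Most genotype-only sites had no peak at day 8. Of WT-only peaks, 10.3% (9.69 to 10.9) overlapped a WT D8 peak and 11.7% (11.05 to 12.3) an HY D8 peak, and 85.4% overlapped neither. Of HY-only peaks, 9.74% (9.32 to 10.2) overlapped an HY D8 peak and 6.47% (6.12 to 6.83) a WT D8 peak, and 88.5% neither. Shared day 0 peaks were found at day 8 far more often, in 44.4% (WT D8) and 52.8% (HY D8) of those in the WT list. Among peaks of the weakest quartile the gap was smaller. There WT D8 and HY D8 held 8.59% and 10.5% of WT-only against 14.9% and 20.7% of shared peaks in the WT list, and 6.04% and 8.26% of HY-only against 15.7% and 20.4% of shared peaks in the HY list. WT-only peaks were thus found at least as often in the HY as in the WT library at day 8: 310 (2.99%) were in WT D8 alone, 454 (4.38%) in HY D8 alone and 754 (7.28%) in both. For HY-only peaks 933 (5.00%) were in HY D8 alone, 323 (1.73%) in WT D8 alone and 884 (4.74%) in both. The HY D8 list was longer, with 47794 peaks against 40226 for WT D8 on chromosomes 1 to 19. In the third quartile of strength the order for WT-only peaks turned, with 17.3% in WT D8 and 15.3% in HY D8 of 549 peaks, while HY-only peaks had 13.9% in HY D8 and 6.93% in WT D8 of 1357.

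**Figure D4:**
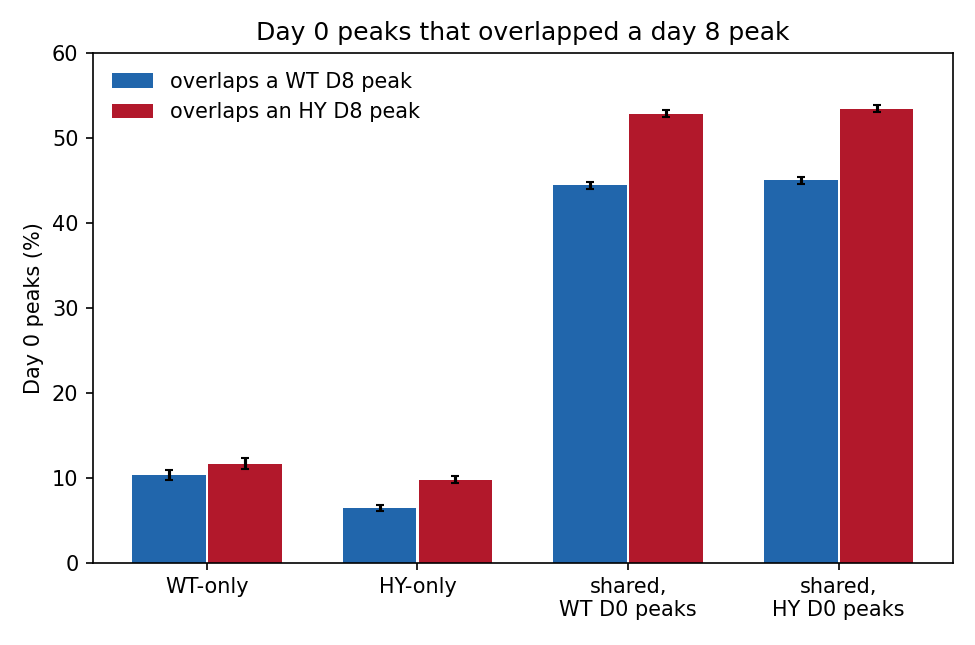
Percent of day 0 peaks (vertical axis) that overlapped a peak of the WT D8 or the HY D8 list, for WT-only, HY-only and shared day 0 peaks (horizontal axis). Bars show exact 95% binomial intervals. Genotype-only peaks stay under 12% and shared peaks between 44.4% and 53.5%.

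Rank changes at day 0 were little related to those at day 8. At 19024 sites paired on both days, the change in percentile between genotypes at day 0 and at day 8 had a Spearman correlation of 0.03 across sites, which share the libraries of each day. Sites 25 points or more higher in HY at day 0 had a median change of 5.24 points at day 8 (825 sites), those within 5 points 2.05 (8530 sites) and those 25 points or more lower 2.21 (575 sites). Large changes at day 8 were more frequent at sites with a large change at day 0, in both directions. These groups were not matched for rank. At day 0 the change was at most 5 points at 54.7% of sites of mean percentile over 75, against 16.7% between 25 and 50. Of the sites higher at day 0, 16% were 25 points or more higher and 7.39% lower at day 8, of those lower at day 0 12.5% were higher and 10.3% lower, and of those within 5 points 8.93% and 2.45%. The motif contrast was partly kept when the same classes were built from the D8 lists. AP-1 was found at 12.6% (11.7 to 13.6) of distal peaks in WT D8 alone and 19.7% (18.98 to 20.4) of those in HY D8 alone, with 16.9% and 17.1% of shared D8 peaks. TEAD had 13.0% in WT D8 alone and 17.3% in HY D8 alone, the opposite order to day 0.

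Chromosomes 12, 14 and 15 stood apart, also in the background around shared peaks. The local background around matched peaks, the tag density of the surroundings, had a median log2 ratio of HY to WT of -0.25 on chromosome 12, 0.24 on chromosome 14 and 0.21 on chromosome 15, and between 0.03 and 0.13 on the other 16. At day 8 the ratios were -0.13, 0.34 and 0.28, and -0.00427 to 0.15 on the others, so the order was kept in the later libraries of the same cultures. On chromosome 12 the day 0 ratio was 0.04 and -0.01 in the first and second 20 Mb, and between -0.34 and -0.32 in the 20 Mb steps from 60 Mb on. At day 8 the step was smaller, with -0.09 and -0.11 in the first and second 20 Mb and between -0.16 and -0.14 from 60 Mb on. The peak classes moved with it. WT-only peaks were 21.9% of WT D0 peaks on chromosome 12, against 13.7% to 16.5% on the 16 others, and HY-only peaks were 30.2% of HY D0 peaks on chromosome 14 and 27.1% on chromosome 15, against 21.4% to 26.5%. Chromosome 12 was the only chromosome with fewer HY-only (550) than WT-only (627) peaks. A difference in DNA copy number between the cultures and a difference in accessibility cannot be told apart here. Without these 3 chromosomes the shares were 14.7% WT-only and 24.3% HY-only, and AP-1 was at 17.3% and 28.9% of the distal genotype-only peaks.

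**Figure D5:**
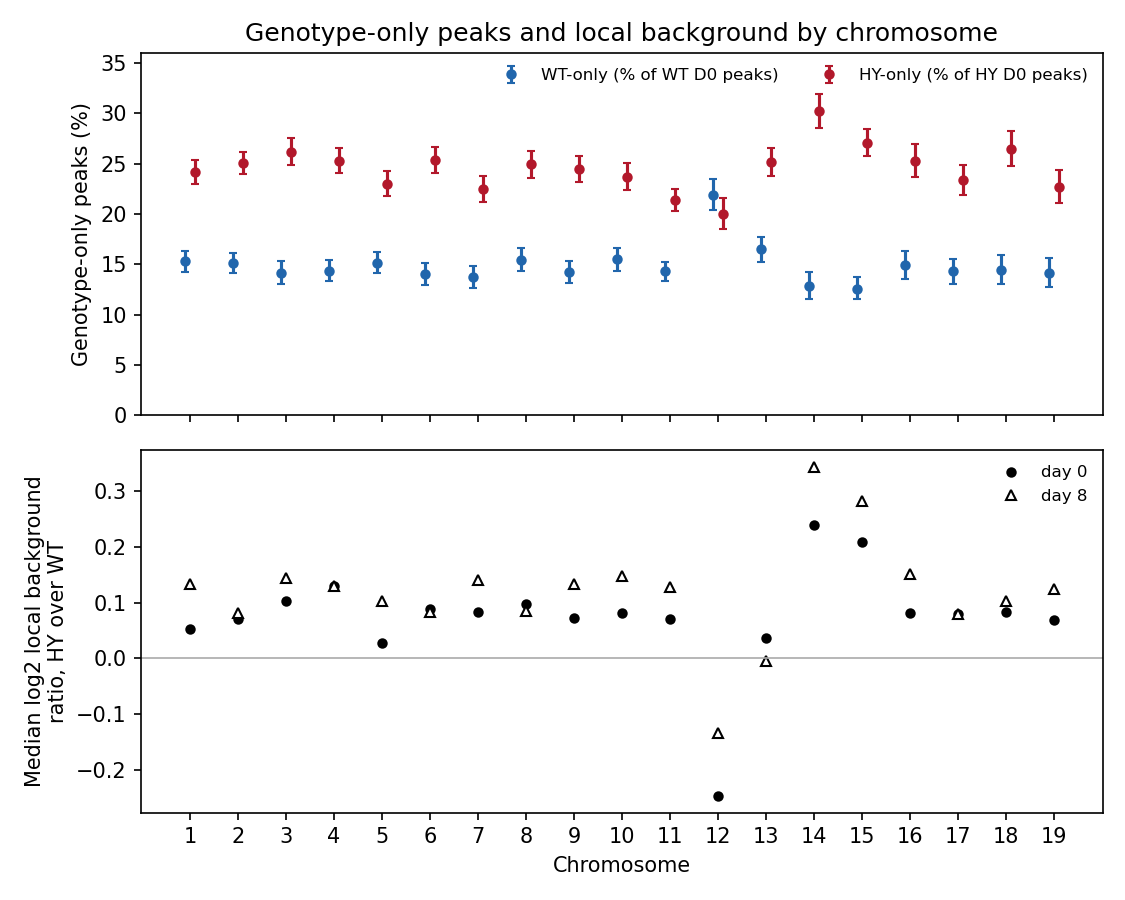
Top, WT-only peaks as percent of WT D0 peaks and HY-only peaks as percent of HY D0 peaks for each of chromosomes 1 to 19, with exact 95% binomial intervals. Bottom, median log2 ratio of local background, HY over WT, at matched peaks on day 0 and day 8. Chromosome 12 has the lowest ratio (-0.25 and -0.13) and the highest WT-only share (21.9%), and chromosome 14 the highest ratio (0.24 and 0.34) and the highest HY-only share (30.2%).

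The sex chromosomes, which are outside the comparison, also differed between the cultures. The WT D0 list had 1 peak on chromosome Y and the HY D0 list 7, and of 4 Y-linked genes with 1 copy (Ddx3y, Eif2s3y, Kdm5d and Uty) 0 had a promoter peak in WT D0 and 3 in HY D0, with the same counts at day 8. The sex of the culture therefore cannot be told apart from the genotype, and its part in the other differences was not tested.

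Most genotype-only sites stood alone between sites of another class, and some came in runs. A run is a series of neighbouring sites of 1 class with no site of another class between them. The median run held 1 site in each genotype-only class. Runs of 5 or more sites were 108 of 13990 HY-only and 8 of 8922 WT-only runs, against 3756 of 18731 runs of shared sites. Of all 85727 sites, 18650 were HY-only, 10363 WT-only and 56714 shared. Run length also depends on how frequent a class is, and the part of that in these counts was not tested. The run with the most sites was on chromosome 14 in the region of Pcdh9, a neuronal protocadherin, with 17 HY-only sites over 1921 kb (chr14:92363150-94283901), each with a pileup between 6 and 17 in HY D0 and no WT D0 peak. Of the 17, 1 had an HY D8 peak. Further HY-only runs lay over Kcnq5, a potassium channel gene (11 sites, chr1:21401394-21951969), Fam135b (11 sites, chr15:68939254-71314020), Cntnap4 (10 sites, chr8:115255065-116085149) and 1700101G07Rik with Gm11011 (12 sites, chr2:168887155-169446939). The WT-only runs with the most sites had 6, over Myo18b (chr5:113060881-113209687) and over Atl1 to Sav1 on chromosome 12 (chr12:70999182-71087839), and runs of 5 lay over Arhgap15, Zcwpw1 to Pilrb2, and Col28a1. In windows of 1 Mb, the largest excess of HY-only peaks was on chromosome 11 from 119 to 120 Mb, with 34 HY-only, 9 WT-only and 71 shared sites, in a stretch that includes Rptor, Baiap2 and Slc38a10. Next were 88 to 89 Mb of chromosome 3, around Lmna (26 and 3), and 79 to 80 Mb of chromosome 15, around Maff and Pdgfb (27 and 5). The largest WT-only excesses were on chromosome 12 from 71 to 72 Mb, around Frmd6 (25 WT-only and 6 HY-only), chromosome 5 from 113 to 114 Mb (23 and 6) and chromosome 12 from 86 to 87 Mb, around Fos and Jdp2 (21 and 5). Both windows on chromosome 12 lie where local background was lower in HY, and the window on chromosome 15 and the runs at Pcdh9 and Fam135b lie on the chromosomes where it was higher. The part of that difference in these excesses was not tested.

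Distal sites were also counted by their nearest protein-coding gene. Over all genes there were 9594 WT-only, 17364 HY-only and 46786 shared distal peaks. The counts were not scaled by the length of sequence nearest to each gene. WT-only sites were most frequent near Thbs1, the gene of thrombospondin 1, with 18 WT-only, 10 HY-only and 36 shared peaks. Tcf7l2, a Wnt effector, had 13, 10 and 26. Frmd6, on chromosome 12, had 10, 1 and 15. The H3K9 demethylase relative Jmjd1c had 11, 7 and 27. Next by WT-only count were Dlc1 (11 WT-only and 11 HY-only), Zfp36l1 (11 and 11), Adamts5 (10 and 6), Ephb2 (10 and 6), Lmo4 (10 and 12) and Med13l (10 and 14). Of these 6, 4 had as many HY-only sites or more, while over all genes HY-only sites were the more frequent. HY-only sites were most frequent near Rbms3, with 19 HY-only, 6 WT-only and 30 shared peaks. Pcdh9 had 18, 0 and 1, and St3gal1, a sialyltransferase gene, 18, 3 and 33. Myc had 16, 9 and 52, and the guidance receptor gene Robo1 16, 3 and 7. Thsd4 (18 HY-only and 8 WT-only), Usp24 (17 and 3), N6amt1 (16 and 3), Actbl2 (14 and 4) and Ext1 (14 and 7) completed the 10. The last places of both lists were tied, with Ppap2b also at 10 WT-only sites and Med13l and others also at 14 HY-only sites. St3gal1, Myc and Ext1 are on chromosome 15 and Pcdh9 on chromosome 14, the chromosomes of higher background in HY.

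Promoter states were nearly the same in both genotypes. Here a gene had a promoter peak when a peak overlapped the same window of any of its start sites, wherever its centre lay. Of 21418 protein-coding genes, 12109 (56.5%) had a promoter peak in both lists, 250 (1.17%) in WT D0 only, 507 (2.37%) in HY D0 only and 8552 in neither. For peaks whose -log10 q reached 5 the counts in 1 list were 114 and 249. Of the 250, 223 rested on a WT-only peak, and of the 507, 433 on an HY-only peak. In the other 27 and 74 the peak was shared, and its partner in the other list ended short of the promoter window. This held for 7 of the 10 strongest WT D0 promoters (Strn, Cd300lg, Zpbp, A730015C16Rik, Nexn, Ccdc155 and Crlf2) and for 9 of the 10 strongest HY D0 promoters (Apol7a, Gtf2ird2, Gm9869, Slc38a1, Mrgpre, Cela1, Ssbp4, Fgf20 and Nfatc4). By -log10 q, the strongest promoters on a genotype-only peak were, for WT D0, Srrm4 (pileup 29), Gm4951 (19) and Slfn10-ps (18). They were followed by Tgtp2 (16), Chrm2 (17), Sp110 (20), Gsc (14), 9230102O04Rik (13), Adhfe1 (21) and Ankrd53 (13). At day 8 Adhfe1 had 33 in WT and 34 in HY, and Gm4951 had 12 and 15. For HY D0 they were C330013J21Rik (33), Htr1b (31), a serotonin receptor gene, 4933404M02Rik (19), Zfp941 (21) and Fahd2a (17), followed by Sprr1a (17), Kcnq5 (18), Gm14408 (15), Mei4 (15) and Rab11fip4 (16).

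Promoters of preadipocyte markers were open at 17 of 20 in WT D0 and 15 of 20 in HY D0, and over all genes 57.8% had a WT D0 and 59.02% an HY D0 peak. Of the 20, 15 had a promoter peak in both lists, 2 in WT D0 only (Dlk1 at a pileup of 7 and Pi16 at 10), 0 in HY D0 only and 3 in neither. Over all coding genes 56.5% had one in both lists, 1.17% in WT D0 only and 2.37% in HY D0 only. Dlk1 lies in the part of chromosome 12 where local background was lower in HY, and its part in this call was not tested. Pdgfra, the receptor that marks adipose progenitors, had 50 in WT D0 and 52 in HY D0, Pdgfrb 53 and 65, and Ebf1 48 and 63. Zfp423, a preadipocyte commitment factor, had 23 and 19, Ebf2 17 and 15, and Thy1 28 and 32. By percentile, 9 of the 15 ranked higher in HY, Pdgfra and Ebf1 among them, and 6 lower, Zfp423 (60.7 to 43.2), Ebf2 and Thy1 (66.3 to 54.5) among them. Ly6a, which encodes the progenitor marker Sca1, had 28 and 57, though at 2 promoter peaks that did not overlap each other and on chromosome 15, where local background was higher in HY. Cd55 had 8 and 17, and Cd34 7 and 12. Of 20 adipocyte genes, 12 were open in both lists, at a median percentile of 83.5 in WT and 81.1 in HY against 82.3 and 82.6 for all genes open in both and 53.7 and 57.3 for the preadipocyte markers, and 8 in neither. Of these 8, Adipoq, Fabp4, Plin1 and Cidec had promoter peaks of 26, 46, 28 and 42 in WT D8 and 25, 46, 29 and 43 in HY D8. Cd36 had 41 and 42 and Gpd1 24 and 44. Gpd1 is on chromosome 15, where local background was higher in HY at day 8 as well, and the part of that was not tested. Lep and Cfd had no promoter peak at day 8. Promoter peaks in both lists were found at 1 of 9 macrophage, 3 of 10 endothelial, 1 of 10 muscle and 0 of 10 epithelial markers. Schwann cell and neuron markers had them at 5 of 9, close to the share of all genes. Markers in 1 list only were Pecam1 in WT D0 (9), and Cd14 (11), Des (7), Krt8 (14) and Rbfox3 (16) in HY D0. The shares over all coding genes are those given above. At day 8 Des had 10 in WT and no peak in HY. Krt8 is on chromosome 15, where local background was higher in HY, and the part of that was not tested. Of the endothelial markers, Kdr (21 in WT D0 and 21 in HY D0), Tek (23 and 19) and Vwf (13 and 17) were open in both lists and Cdh5, Tie1, Erg, Sox17, Sox18 and Emcn in neither. Ptprc and Csf1r of the macrophage list, Myod1 and Pax7 of the muscle list and Epcam of the epithelial list had no promoter peak in either list.

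Kdm3a itself had an open promoter in every library, with a pileup of 67 in WT D0, 84 in HY D0, 53 in WT D8 and 60 in HY D8. The HY allele changes the protein and not the promoter, so these values do not check the labels. Among 20 H3K9 demethylase and methyltransferase genes, 19 were open in both D0 lists and 1, Phf2 (10), in HY D0 only. Of 20 thermogenic genes, 8 were open in both, 0 in WT D0 only, 1 in HY D0 only (Cidea, a lipid droplet protein gene, at 7) and 11 in neither, among them Ucp1, Ppargc1a and Dio2. Over all coding genes 56.5% were open in both, 1.17% in WT D0 only and 2.37% in HY D0 only, so 1 of 20 is not set apart from the share over all genes. Ppargc1b, a coactivator of mitochondrial genes, had 16 in WT D0 and 29 in HY D0, and 23 in each library at day 8. Prdm16, a determinant of the beige and brown fate, had 7 and 19, then 11 and 12 at day 8. Ppara had 28 and 45, then 35 and 45, and Letmd1 23 and 38, then 26 and 33. Ppara and Letmd1 are on chromosome 15, where local background was higher in HY on both days, and the part of that in these values was not tested. These 4 promoters were higher in HY at day 0, and of the 8 open in both lists 5 ranked higher in HY and 3 lower, against 5920 higher and 6134 lower among all 12054 gene symbols open in both. The thermogenic genes were nearest to 27 HY-only, 5 WT-only and 64 shared distal peaks, against 17364, 9594 and 46786 for all genes, and 8 of the 27 lay near Ppargc1a and 5 near Ppargc1b.

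The next lists are read against all coding genes, of which 56.5% were open in both lists, 1.17% in WT D0 only and 2.37% in HY D0 only. Among 57 Hox and patterning genes, 33 were open in both lists, 1 in WT D0 only (Hoxc12, pileup 15) and 3 in HY D0 only (Hoxa11 at 13, Hoxa13 at 9 and Hoxc11 at 17), so the share open in both was close to that of all genes. The Hoxc11 peak was shared and its WT partner missed the promoter window. All 20 cell cycle and senescence genes were open in both lists. Of 20 collagen and matrix genes, 18 were open in both and Col14a1 (25, a shared peak) in HY D0 only. Col14a1 and Hoxc11 are on chromosome 15, where local background was higher in HY, as is Hoxc12. The part of that in these calls was not tested. Of 16 imprinted genes, 9 were open in both, again close to all genes, with Dlk1 in WT D0 only and Snrpn (8) in HY D0 only.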

How the data were processed

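ATAC-seq was analysed from 4 peak lists, 1 per library, of WT and HY im-scWAT cells at day 0 and day 8. The authors trimmed, aligned (mm9) and removed PCR duplicates, and called peaks on each library alone. Bowtie2, SAMtools, Picard and deepTools are named in the submitters' processing notes, and MACS3 in the study's methods for its ChIP-seq. Versions, the calling threshold and any Tn5 shift are not given in the sources used here, and a missing shift would move summits by a few bases. The deposited enrichment column is the ratio of summit pileup to local background, each with 1 added (fold), not normalised between libraries. Further deposited columns hold the -log10 of the p-value and of the q-value at each summit. The deposited score column was not used. Peaks on the sex chromosomes and other contigs were left out, except where stated.

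The whole-number summit pileup and the local background were solved from fold and -log10 p within 0.002 for 100% of peaks, and the procedure was tested on simulated data. Annotation was GENCODE vM1 on the NCBIM37 (mm9) genome, whose chromosomes no peak overran. Overlaps were computed in Python 3.11.15 (numpy 2.4.6, pandas 2.3.3, scipy 1.17.1) and the class counts checked with BEDTools 2.31.1. Totals of reads are unknown, and relative depth came from the background rate.

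Sites named are, per class or direction, the 10 of highest -log10 q, the 10 largest rank changes with a pileup of at least 20, the 5 longest runs, the 3 windows of 1 Mb with the largest excess, the 10 genes with most distal sites, the 10 strongest promoters in 1 list, and list genes open in 1 list. Of the 10 WT-only sites of highest -log10 q, 1 is not reported here. Other list genes, the strongest promoters on genotype-only peaks and the sites printed for AP-1 or TEAD were chosen after their values were seen. Sites on chromosome 18 were passed over when sequences were chosen. The members and lists were chosen with earlier results of these data known. With 1 library per group no test, no replicate error and no pairing could be had. Alternatives were another overlap rule, a -log10 q of at least 5, lists of equal length, a wider promoter window and other ranked measures.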

Additional observations from a re-analysis of the deposited data

Results flagged for a closer look

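Some HY minus WT differences of day 0 had the opposite sign at day 8. Each rests on 1 library per group, and whether the days differ was not tested. The median fold enrichment was 0.147 higher in HY at day 0 (6.78 against 6.63) and lower at day 8 (6.33 against 6.60). The median -log10 q was 0.681 higher in HY at day 0 (9.46 against 8.78) and lower at day 8 (7.53 against 8.43). The background rate, which follows depth, was 0.0487 higher in HY at day 0 (0.708 against 0.659) and lower at day 8 (0.494 against 0.531), so the deeper library was HY at day 0 and WT at day 8.

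Among distal peaks found in 1 genotype, the TEAD share was -3.85 percentage points in HY minus WT at day 0 (17.2% and 21.1%) and 4.23 points at day 8 (17.3% and 13.0%). The RUNX share was -1.29 points at day 0 (7.47% and 8.76%) and 1.82 points at day 8 (6.16% and 4.34%). The E-box share was 5.26 points higher in HY at day 0 (19.03% and 13.8%) and -0.279 points at day 8 (14.8% and 15.1%). The CTCF share was 2.02 points higher in HY at day 0 (4.36% and 2.33%) and -0.395 points at day 8 (4.202% and 4.60%). AP-1 had the same sign on both days, at 11.5 points and 7.04 points.

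Chromosome Y, outside the main comparison, had 7 peaks in HY D0 against 1 in WT D0, and 6 in HY D8 against 1 in WT D8.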

How the results depend on the processing

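No paired analysis was possible because each genotype had 1 library per day. Of 73 alternative values, 31 stayed within the main value's interval, for counts within 1.5 times, or for rank correlations at the rounded 0.80. Among the 31, the rank correlation with percentiles among the pairs only could not differ from the main value. In every setting in which the classes were rebuilt the HY-only share exceeded the WT-only share, and AP-1 was more frequent in HY-only than in WT-only distal peaks. AP-1 was not recounted with the wider promoter window. Leaving out chromosomes 12, 14 and 15, and the alternatives for AP-1, were chosen after seeing the data. The lowest pileup called was 5 in each day 0 list, and the effect of depth on the weak peaks was not tested.

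Below, each group of values gives the share of peaks in 1 list, then of those the share at promoters, with a WT D8 peak and with an HY D8 peak. With 50% of the own length covered, in the classes and at day 8, they were 20.4%, 8.08%, 8.39% and 9.89% for WT-only, and 34.6%, 9.10%, 5.65% and 8.51% for HY-only. With peaks within 500 bp counted as shared, they were 11.5%, 5.51%, 12.1% and 13.6% for WT-only and 20.7%, 5.36%, 7.46% and 11.01% for HY-only, and AP-1 was at 18.7% and 30.7%. For peaks whose -log10 q reached 5, they were 7.63%, 6.502%, 12.7% and 13.4% for WT-only, AP-1 was at 18.9% of WT-only and 33.6% of HY-only distal peaks, and 114 and 249 genes had a promoter peak in WT D0 or HY D0 only. The HY-only share was then 12.7%, with 7.12% in WT D8 and 12.1% in HY D8. With lists of the same length, the WT-only share was 17.7%, of which 11.1% had a WT D8 and 12.8% an HY D8 peak. The HY-only share was 20.6%, of which 10.3% had an HY D8 peak, and AP-1 was at 30.5%.

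Without chromosomes 12, 14 and 15 the promoter share of HY-only peaks was 7.32%. With a promoter window of 2000 bp before to 1000 bp after the start site the promoter shares were 14.6% for WT-only and 13.9% for HY-only. With the pileup ranked, 4043 shared sites were 25 points or more higher and 1941 lower in HY, and the rank correlation was 0.867. It was 0.820 with -log10 q ranked and 0.811 for summits within 100 bp. The causes of these changes were not tested.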

Other observations

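Chromosome X was outside the classes given above. Of 1560 WT D0 peaks on it, 17.8% (15.9 to 19.7) had no HY D0 peak, and of 1627 HY D0 peaks 23.8% (21.8 to 26.0) had no WT D0 peak. The WT-only share was above the 14.9% of chromosomes 1 to 19, and the HY-only share had an interval that included their 24.5%.

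Promoter peaks found in 1 genotype had less of the sequence that is common to shared promoters. The GC box was found at 25.4% of WT-only and 31.4% of HY-only promoter peaks, against 54.5% and 54.8% of shared promoter peaks in the WT and HY lists. ETS matches were found at 1.69% and 3.34%, against 12.9% and 12.8%. AP-1 matches were more frequent, at 11.8% and 12.5% against 6.74% and 6.97%. Median GC content was 54.2% and 56.2%, against 63.2% in both lists.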
